A study of Rattus norvegicus with 48 samples.

Results

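rno-miR-199a-5p and rno-miR-199a-3p are the 5′ and 3′ products (arms) of one microRNA (miRNA) hairpin, and their levels were followed through all 16 groups of a study of liver regeneration in rats. They were taken by name and make up 2 of the 143 miRNAs in the table. Total RNA from whole liver of adult male Sprague-Dawley rats was hybridised to NanoString nCounter probes, which count each miRNA directly. The study asked how hepatic miRNAs change as the liver regrows after removal of 70% of it (partial hepatectomy, PHx), how chronic ethanol feeding alters this, and how AM21, a locked nucleic acid directed at miR-21, acts on it. Rats were pair-fed a liquid diet with ethanol (EtOH) or with carbohydrate in its place (CHO). Untreated animals of each diet were taken at 0, 6, 24 and 72 h, which makes 8 groups. Saline-injected animals make 4 groups, 1 for each diet at 0 and 24 h, and animals injected with AM21 in saline make the 4 matching ones. Injections were intraperitoneal, before surgery and again right after PHx, so that an animal at 0 h had at most the earlier one. Every group held 3 animals, 48 in all. The animals at 0 and 24 h carry the numbered sets 1 to 3 and those at 6 and 72 h carry set 4, and the labels do not say what a set is. The sources used here do not say whether tissue at 0 h and at a later time came from the same rat, and each sample was treated as a separate animal.

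Both arms are processed from a precursor that is made together with miR-214 from a long noncoding transcript antisense to the dynamin 3 gene (Dnm3). They are known from mesenchymal cells such as fibroblasts, smooth muscle and, in the liver, the hepatic stellate cell, which stores vitamin A and turns into a matrix-producing myofibroblast after injury. Activated stellate cells have been described to hold more of both arms, and miR-199a-5p has been tied to fibrosis. The samples were whole liver, so the cell type that held the RNA was not measured, and fewer cells of a type and less RNA per cell cannot be told apart in any value given here.

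The mature sequences, from RefSeq on the rat assembly GRCr8, are shown because the arms pair with targets through different seeds (bases 2 to 8, in capitals), and both names matched.
rno-miR-199a-5p: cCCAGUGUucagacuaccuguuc
rno-miR-199a-3p: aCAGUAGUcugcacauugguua
They lie on the plus strand at chr13:77116255-77116277 and chr13:77116294-77116315, 16 bases apart, in the gene Mir199a2 (chr13:77116225-77116334). The gene sits inside the bounds of Dnm3 (chr13:76892381-77371346), which is read from the other strand, and the Mir214 hairpin begins 5329 bases past the 3p arm on the same strand. Neither seed was held by any other of the 724 mature entries, and 124 of the 143 probes matched a mature name. Those entries cover only the miRNAs listed there, and whether either probe also captured products of other genes was not tested. miR-214 and the related miR-199b have no row in the deposited table, and the rest of the transcript could not be followed here. The paper assayed more miRNAs than these 143 and counts miR-214 among those overlapping with its data, so miR-214 was assayed. For miR-199b the missing row does not show that it was not assayed.

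Both arms gave counts in every animal, with a smaller counting error for the 3p arm. Whether either arm lay above probe background in every animal was not tested, and counting error alone cannot show it. Total counts per animal, summed over the 143 miRNAs in the table and not over all that were assayed, ran from 58168 to 267582 (median 160078). miR-199a-3p gave 223 to 1249 counts (median 663.5) and ranked 18 to 33 of the 143 miRNAs by level. miR-199a-5p gave 30 to 178 counts (median 83.5) and ranked 52 to 106. At the lowest count of an arm, counting alone gives an error of 18.3% for the 5p arm and 6.70% for the 3p arm. miR-122, the hepatocyte miRNA, took 42.1% to 68.8% of these total counts in each animal. Levels are given as log2 CPM, counts scaled to the library size, in which a step of 1 is a doubling.

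A few libraries stood apart. The EtOH-fed saline animals 1 and 2 at 0 h had miR-21 at 11.12 and 9.65, against at least 12.97 in every other control at 0 and 24 h and 6.59 to 7.76 in AM21 animals. Their miR-199a-5p was 9.32 and 9.38 and their miR-199a-3p 12.59 and 12.31, the former 3p value being the highest among the animals at 0 and 24 h. Every limma comparison that uses these 2 animals was also run without them, a choice made after the data were seen. The CHO-fed untreated animal 2 at 0 h had the lowest total (58168 counts) and the lowest value of its group in both arms, 8.91 and 11.96. The CHO-fed AM21 animals 1 and 3 at 24 h had the highest shares of miR-122, 68.0% and 68.8%. Their group had the highest mean sum of hepatocyte miRNAs, 789336 CPM. Untreated and saline CHO-fed rats at 24 h had 615758 and 649922. What part this had in the AM21 differences was not tested.

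Across the 16 groups, miR-199a-5p was highest at 24 h in saline-injected animals of either diet and lowest in AM21-injected animals at 0 h. From the top, its mean (± SD, n = 3) was 9.60 ± 0.17 in CHO-fed saline animals at 24 h, 9.49 ± 0.08 in EtOH-fed saline animals at 24 h, 9.48 ± 0.19 in CHO-fed untreated animals at 24 h, 9.47 ± 0.47 in CHO-fed untreated animals at 72 h and 9.37 ± 0.03 in EtOH-fed untreated animals at 72 h. The middle of the order held 9.28 ± 0.25 in CHO-fed saline animals at 0 h, 9.25 ± 0.18 in EtOH-fed saline animals at 0 h, 9.17 ± 0.05 in CHO-fed untreated animals at 6 h, 9.14 ± 0.20 in CHO-fed untreated animals at 0 h, 9.0 ± 0.29 in CHO-fed AM21 animals at 24 h and 8.95 ± 0.42 in EtOH-fed untreated animals at 6 h. At the low end stood 8.84 ± 0.09 in EtOH-fed untreated animals at 0 h, 8.81 ± 0.26 in EtOH-fed AM21 animals at 24 h, 8.80 ± 0.21 in EtOH-fed untreated animals at 24 h, 8.72 ± 0.18 in CHO-fed AM21 animals at 0 h and 8.38 ± 0.17 in EtOH-fed AM21 animals at 0 h. The means spanned 1.21, in small steps compared with the spread within groups. Of the 15 pairs of neighbours in this order, only the last did not overlap in any animal, with a step of 0.34 down to EtOH-fed AM21 animals at 0 h, so the rest of the order between neighbours does not go beyond the spread.

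miR-199a-3p had a different order, led by the saline-injected animals at 0 h and ending with EtOH-fed untreated animals at 24 h. Its means (± SD, n = 3) began with 12.51 ± 0.02 in CHO-fed saline animals at 0 h, 12.41 ± 0.16 in EtOH-fed saline animals at 0 h, 12.29 ± 0.37 in EtOH-fed untreated animals at 72 h, 12.18 ± 0.28 in CHO-fed untreated animals at 24 h and 12.17 ± 0.24 in EtOH-fed saline animals at 24 h. Then came 12.12 ± 0.15 in CHO-fed untreated animals at 0 h, 12.12 ± 0.23 in EtOH-fed untreated animals at 0 h, 12.10 ± 0.41 in CHO-fed untreated animals at 72 h, 12.05 ± 0.35 in CHO-fed saline animals at 24 h, 11.92 ± 0.19 in EtOH-fed untreated animals at 6 h and 11.88 ± 0.16 in EtOH-fed AM21 animals at 0 h. The lowest were 11.85 ± 0.25 in CHO-fed AM21 animals at 0 h, 11.83 ± 0.29 in EtOH-fed AM21 animals at 24 h, 11.73 ± 0.16 in CHO-fed AM21 animals at 24 h, 11.61 ± 0.31 in CHO-fed untreated animals at 6 h and 11.50 ± 0.08 in EtOH-fed untreated animals at 24 h. The range was 1.02, no step between neighbours was above 0.13, and in 0 of 15 pairs of neighbours were the animals apart. The AM21 groups took places 10, 13, 15 and 16 in the 5p order and 11 to 14 in the 3p order.

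**Figure D1:**
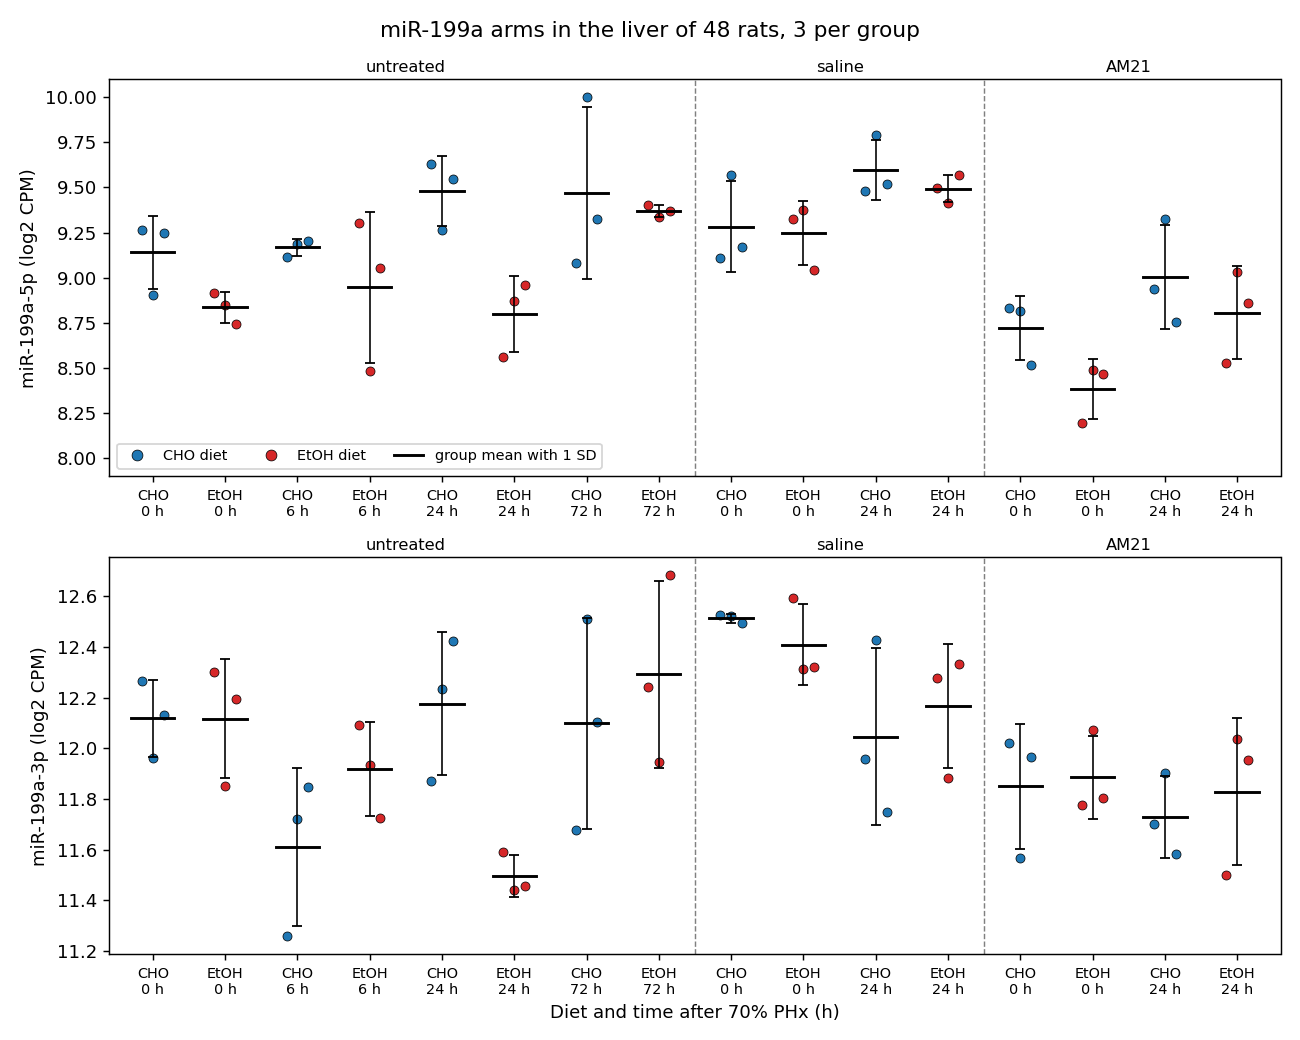
Level of miR-199a-5p (upper) and miR-199a-3p (lower) in log2 CPM by diet, treatment and time after PHx; each point is 1 rat and the bars are the group mean with 1 SD (n = 3). The means run from 8.38 to 9.60 for the 5p arm and from 11.50 to 12.51 for the 3p arm.

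On average over diets and times, both arms were lower in animals that had received AM21 than in controls, miR-199a-5p by more, with the exception that miR-199a-3p in EtOH-fed rats at 24 h was level with the mean of its controls. Whether the arms differed in the size of this was not tested. At 0 h, miR-199a-5p in AM21 animals was 8.83, 8.82 and 8.51 in CHO-fed and 8.19, 8.49 and 8.47 in EtOH-fed rats. Untreated controls had 9.27, 8.91 and 9.25 in CHO-fed and 8.91, 8.85 and 8.74 in EtOH-fed rats, and saline controls 9.11, 9.57 and 9.17 in CHO-fed and 9.32, 9.38 and 9.05 in EtOH-fed rats. Every AM21 animal at 0 h thus lay below every control of its own diet in the 5p arm. At 24 h the AM21 animals held 8.94, 9.32 and 8.76 in CHO-fed and 8.52, 9.03 and 8.86 in EtOH-fed rats. Untreated animals at this time held 9.63, 9.26 and 9.54 in CHO-fed and 8.56, 8.87 and 8.96 in EtOH-fed rats, and saline-injected ones 9.48, 9.79 and 9.52 in CHO-fed and 9.50, 9.42 and 9.57 in EtOH-fed rats. In CHO-fed rats at 24 h one AM21 animal, at 9.32, was above the lowest control, and in EtOH-fed rats the AM21 animals overlapped with the untreated but not with the saline ones.

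For miR-199a-3p, the AM21 animals at 0 h had 12.02, 11.57 and 11.96 in CHO-fed and 11.78, 12.07 and 11.81 in EtOH-fed rats. Values in untreated animals were 12.27, 11.96 and 12.13 in CHO-fed and 12.30, 11.85 and 12.19 in EtOH-fed rats, and in saline-injected animals 12.53, 12.52 and 12.49 in CHO-fed and 12.59, 12.31 and 12.32 in EtOH-fed rats. The AM21 animals were all below the saline animals, but overlapped with the untreated in either diet. At 24 h the 3p arm measured 11.70, 11.90 and 11.58 in CHO-fed and 11.50, 12.04 and 11.95 in EtOH-fed rats given AM21. It was 11.87, 12.23 and 12.42 in CHO-fed and 11.59, 11.44 and 11.46 in EtOH-fed untreated rats, and 11.96, 12.43 and 11.75 in CHO-fed and 12.28, 11.88 and 12.33 in EtOH-fed rats given saline. The groups overlapped here in either diet, and in EtOH-fed rats 2 of 3 AM21 animals were above the mean of their controls.

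Over both diets and times, AM21 against all controls gave a difference in miR-199a-5p of -0.51 (SE 0.08) on the log2 scale (95% confidence interval -0.66 to -0.35; limma, 12 against 24 animals, adjusted p = 1.26e-05), a change of -29.6%. The 5p arm was below the mean of its matched controls in 12 of 12 AM21 animals and ranked 3 of 143 by p. miR-199a-3p fell by a smaller step, -0.31 (SE 0.08, interval -0.47 to -0.14; adjusted p = 0.0186), a change of -19.2%, with 10 of 12 animals below the matched mean. Adjusted p-values were taken over all 143 miRNAs of a comparison, and under 0.05 counts as called. Both arms were called, against 8 of 143 miRNAs (5.59%) in all, of which 6 were lower and 2 higher, and the median over all miRNAs was 0.00. miR-21 itself was -7.15 (adjusted p = 1.31e-21). It had only 15 to 32 counts in AM21 animals, where a level above probe background was not shown, so that size is approximate. The 5p call held without any single animal and with every alternative. The 3p call was lost without the CHO-fed AM21 animal 2 at 0 h or the EtOH-fed AM21 animal 1 at 24 h (-0.27, adjusted p = 0.0589 to 0.0649), without the 2 saline animals low in miR-21 (-0.30, adjusted p = 0.0524), and when the geometric mean of the top 100 probes set the scale (-0.24, adjusted p = 0.0916).

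The size of the difference depended on which controls were used. Against saline animals alone, which share the injection, it was -0.68 (adjusted p = 1.09e-05) for miR-199a-5p and -0.46 (adjusted p = 0.0036) for miR-199a-3p. Against untreated animals alone it was -0.34 (adjusted p = 0.0343) for the 5p arm and -0.15 (adjusted p = 0.422) for the 3p arm, which was no longer called. On average over diets and times, AM21 animals thus had less of both arms than rats given the vehicle, and less miR-199a-5p than rats given nothing. Against untreated animals alone, the 5p difference passed the test only in this average, and in EtOH-fed rats at 24 h it was 0.0072. For miR-199a-3p a difference from untreated rats was not shown.

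By time, the AM21 difference was called at 0 h in both arms and at 24 h in miR-199a-5p. At 0 h it was -0.57 (SE 0.11, adjusted p = 0.000479) for the 5p arm, with 6 of 6 animals below the matched mean, and -0.42 (SE 0.12, adjusted p = 0.0369; 6 of 6) for the 3p arm, so that both arms were among the 6 of 143 miRNAs (4.20%) called. At 24 h miR-199a-5p was -0.44 (SE 0.11, 6 of 6 animals; adjusted p = 0.0127) and was 1 of the 4 miRNAs called (2.80% of 143), while miR-199a-3p was -0.19 (SE 0.12, adjusted p = 0.657). A change between the times was not shown for either arm: the effect at 24 h minus that at 0 h was 0.14 (SE 0.15) for the 5p arm (adjusted p = 0.998) and 0.23 (SE 0.16) for the 3p arm (adjusted p = 0.998), and limma called 0 of 143 miRNAs (0%), with 4 at unadjusted p under 0.05. The 3p call at 0 h was lost in 8 of 18 runs that left out 1 animal (-0.42 to -0.35, adjusted p = 0.0543 to 0.201), namely CHO-fed AM21 animal 2, CHO-fed saline animals 1 and 2, CHO-fed untreated animal 1, EtOH-fed AM21 animals 1 and 3, EtOH-fed saline animal 1 and EtOH-fed untreated animal 1; without the saline animals low in miR-21 it was -0.40 (adjusted p = 0.103), with untreated controls alone -0.25 (adjusted p = 0.554), with geometric mean scaling -0.38 (adjusted p = 0.0539) and in a fit of the compared groups alone -0.42 (adjusted p = 0.0602). The 5p call at 24 h was lost without CHO-fed AM21 animal 3 or EtOH-fed AM21 animal 1 (-0.37, adjusted p = 0.0927 to 0.104) and with geometric mean scaling (-0.34, adjusted p = 0.0902), and with untreated controls alone the 5p difference was -0.44 (adjusted p = 0.105) at 0 h and -0.23 (adjusted p = 0.641) at 24 h.

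By diet, miR-199a-5p was lower under AM21 in CHO-fed and in EtOH-fed rats, by nearly the same amount when both kinds of control were averaged. In CHO-fed rats the difference was -0.51 (SE 0.11, adjusted p = 0.00243; 6 of 6 animals below the matched mean) and in miR-199a-3p -0.42 (SE 0.12, adjusted p = 0.0282; 6 of 6), so both arms were among the 6 of 143 miRNAs (4.20%) called. In EtOH-fed rats it was -0.50 (SE 0.11, adjusted p = 0.00342; 6 of 6), 1 of the 5 miRNAs called (3.50% of 143), and -0.19 (SE 0.12) for the 3p arm (adjusted p = 0.733). Between the diets the AM21 effect was not shown to differ, with EtOH minus CHO at 0.01 (SE 0.15) for the 5p arm (adjusted p = 0.999) and 0.23 (SE 0.16) for the 3p arm (adjusted p = 0.713); limma called 0 of 143 miRNAs (0%), and 8 had an unadjusted p under 0.05. The 3p call in CHO-fed rats was lost in 6 of 18 runs that left out 1 animal (-0.42 to -0.35, adjusted p = 0.0519 to 0.15): AM21 animal 2 or untreated animal 1 at 0 h, and AM21 animals 1 and 3, saline animal 2 or untreated animal 3 at 24 h; it was also lost with untreated controls alone (-0.36, adjusted p = 0.209), geometric mean scaling (-0.36, adjusted p = 0.0519) and a fit of the compared groups alone (-0.42, adjusted p = 0.12). With untreated controls alone the 5p difference was -0.45 (adjusted p = 0.0548) in CHO-fed and -0.22 (adjusted p = 0.8) in EtOH-fed rats, and the 3p difference in EtOH-fed rats turned to 0.05 (adjusted p = 0.975). With saline controls alone the 5p difference was -0.58 (adjusted p = 0.00937) in CHO-fed and -0.78 (adjusted p = 0.000361) in EtOH-fed rats. EtOH minus CHO in the 5p effect thus turned sign with the controls, at -0.20 (adjusted p = 0.79) against saline and 0.23 (adjusted p = 0.81) against untreated animals.

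Within single diets and times, comparisons added after the values had been viewed, the AM21 difference in miR-199a-5p was called only in EtOH-fed rats at 0 h. There it was -0.66 (SE 0.15, adjusted p = 0.00822; 3 of 3 animals below the control mean), 1 of the 4 miRNAs called (2.80% of 143), with miR-199a-3p at -0.38 (SE 0.16, adjusted p = 0.583). In the other 3 combinations neither arm was called, and miR-199a-5p was below its controls in each. CHO-fed rats at 0 h had -0.49 (SE 0.15) for the 5p arm (adjusted p = 0.0688) and -0.47 (SE 0.16) for the 3p arm (adjusted p = 0.125), and neither was among the 3 of 143 miRNAs (2.10%) called. In CHO-fed rats at 24 h the values were -0.53 (SE 0.15, adjusted p = 0.0585) and -0.38 (SE 0.16, adjusted p = 0.43), with neither arm among the 2 of 143 miRNAs (1.40%) called. EtOH-fed rats at 24 h gave -0.34 (SE 0.15) for miR-199a-5p (adjusted p = 0.598) and -0.00 (SE 0.16) for miR-199a-3p (adjusted p = 0.997), again with 0 arms among the 2 of 143 miRNAs (1.40%) called. In this combination the result turned on the controls: miR-199a-5p was -0.69 (adjusted p = 0.0765) against saline and 0.0072 (adjusted p = 0.988) against untreated animals, and miR-199a-3p -0.34 (adjusted p = 0.824) and 0.33 (adjusted p = 0.768), with its sign turned in 8 of 21 alternatives. The EtOH 0 h call was lost without AM21 animal 1 (-0.56, adjusted p = 0.125), without the 2 saline animals low in miR-21 (-0.56, adjusted p = 0.171) and with untreated controls alone (-0.45, adjusted p = 0.705). In CHO-fed rats the 5p arm was called at 0 h without untreated animal 2 (-0.55, adjusted p = 0.0492) and at 24 h without AM21 animal 2 or untreated animal 2 (-0.69 to -0.59, adjusted p = 0.0167 to 0.0393). With the replicate number as a block it was also called at 24 h (-0.53, adjusted p = 0.0489).

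**Figure D2:**
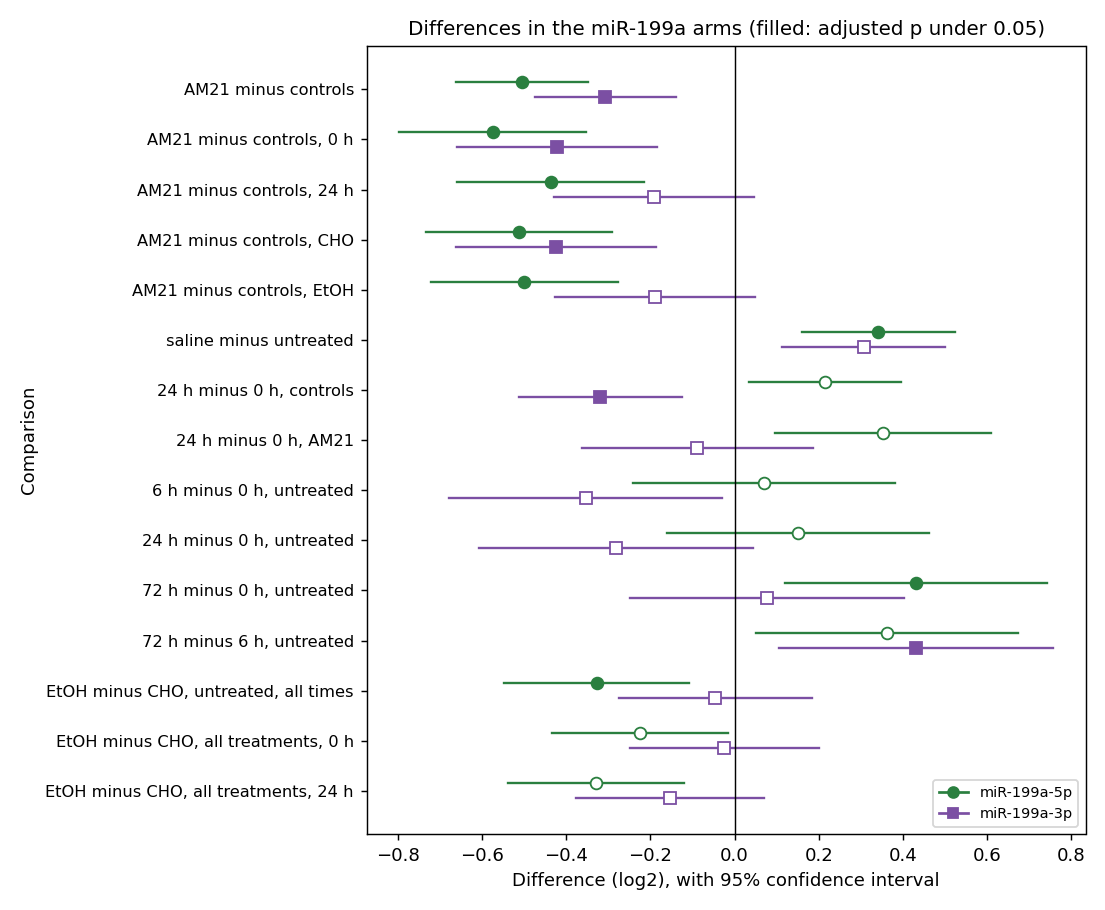
Differences in miR-199a-5p (circles) and miR-199a-3p (squares) on the log2 scale with 95% confidence intervals, for the comparisons named at left; filled symbols have an adjusted p under 0.05 over 143 miRNAs. AM21 minus controls was -0.51 for the 5p arm and -0.31 for the 3p arm, and saline minus untreated 0.34 and 0.31.

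Saline-injected animals had more miR-199a-5p than untreated animals, the opposite side of untreated from AM21, in a comparison that shares its animals with those of AM21. Of the saline animals, 11 of 12 were above the mean of untreated animals of their diet and time in the 5p arm and 10 of 12 in the 3p arm. Over both diets and times, miR-199a-5p was higher by 0.34 (SE 0.09, interval 0.16 to 0.52; adjusted p = 0.0407), a change of 26.7%, and miR-199a-3p by 0.31 (SE 0.09, adjusted p = 0.142). The 5p arm was 1 of the 2 miRNAs called (1.40% of 143) by limma, and the other was miR-21, at -1.10 (adjusted p = 0.0407). Without the 2 EtOH-fed saline animals at 0 h low in miR-21, miR-21 itself was -0.48 (adjusted p = 0.683) and not called. The 5p call rested on the whole set of animals: it was lost in 21 of 24 runs that left out 1 animal (0.31 to 0.36, adjusted p = 0.0518 to 0.124), and kept only without CHO-fed saline animal 1 at 24 h, EtOH-fed saline animal 3 at 0 h or EtOH-fed untreated animal 3 at 24 h. It was also lost without the 2 saline animals low in miR-21 (0.29, adjusted p = 0.683) and with total count scaling (0.35, adjusted p = 0.311), all 48 animals in the fit (0.34, adjusted p = 0.0897), a trend and robust prior (0.34, adjusted p = 0.0919), depth as a covariate (0.34, adjusted p = 0.0899), the compared groups alone (0.34, adjusted p = 0.0979) or voom weights (0.34, adjusted p = 0.0546), which is 7 of 11 alternatives besides leaving out single animals.

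The largest saline difference was in EtOH-fed rats at 24 h, where no animal of the 2 groups overlapped in either arm, as was also so in EtOH-fed rats at 0 h and, for the 3p arm, in CHO-fed rats at 0 h. How many of the 143 miRNAs were without overlap in these groups was not counted. At 24 h in EtOH-fed rats, miR-199a-5p was 8.56, 8.87 and 8.96 untreated against 9.50, 9.42 and 9.57 with saline, and miR-199a-3p 11.59, 11.44 and 11.46 against 12.28, 11.88 and 12.33. The differences were 0.70 (SE 0.18, adjusted p = 0.0645) and 0.67 (SE 0.19, adjusted p = 0.0645), and limma called 0 of 143 miRNAs (0%), with 7 at unadjusted p under 0.05. With voom weights both arms were called, at 0.70 (adjusted p = 0.0424) and 0.67 (adjusted p = 0.0424), and with geometric mean scaling the 5p arm, at 0.72 (adjusted p = 0.0446). The summed level of red blood cell miRNAs also differed here, 3954 (3266 to 4354) CPM untreated against 1354 (944 to 1921) with saline (mean and range of 3), and its part in the result was not tested. In EtOH-fed rats at 0 h the values were 0.41 (SE 0.18) for the 5p arm (adjusted p = 0.997) and 0.29 (SE 0.19) for the 3p arm (adjusted p = 0.997), with neither arm among the 1 of 143 miRNAs (0.699%) called. In CHO-fed rats the arms were closer to the untreated level, apart from the 3p arm at 0 h. CHO-fed rats at 0 h had 0.14 (SE 0.18) for miR-199a-5p and 0.39 (SE 0.19) for miR-199a-3p, with limma calling 0 of 143 miRNAs (0%) and 9 at unadjusted p under 0.05. At 24 h in CHO-fed rats the values were 0.12 (SE 0.18) and -0.13 (SE 0.19), and limma called 0 of 143 miRNAs (0%; 6 unadjusted).

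These tests within a diet and time, and those of how the saline effect varied, were added after the values had been viewed. EtOH minus CHO in the saline effect was 0.43 (SE 0.18) for miR-199a-5p (adjusted p = 0.627) and 0.35 (SE 0.19) for miR-199a-3p (adjusted p = 0.901), where limma called 0 of 143 miRNAs (0%) and 7 had an unadjusted p under 0.05. The saline effect at 24 h minus that at 0 h was 0.13 (SE 0.18, adjusted p = 0.911) and -0.07 (SE 0.19, adjusted p = 0.911), and limma called 0 of 143 miRNAs (0%), with 10 at unadjusted p under 0.05. A dependence of the saline effect on diet or time was therefore not shown for either arm.

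In untreated rats after PHx, miR-199a-5p was higher at 72 h than at 0 h, and miR-199a-3p was higher at 72 h than at 6 h. At 6 h, miR-199a-5p was 9.11, 9.19 and 9.20 in CHO-fed and 9.30, 8.48 and 9.06 in EtOH-fed rats, and at 72 h 9.08, 9.999 and 9.32 in CHO-fed and 9.40, 9.33 and 9.37 in EtOH-fed rats. The 5p values at 6 h overlapped with those at 0 h, and at 72 h the EtOH-fed rats were all above those at 0 h. miR-199a-3p was 11.26, 11.72 and 11.85 in CHO-fed and 12.09, 11.94 and 11.72 in EtOH-fed rats at 6 h and 11.68, 12.51 and 12.11 in CHO-fed and 12.24, 11.95 and 12.68 in EtOH-fed rats at 72 h. All CHO-fed rats at 6 h were below all CHO-fed rats at 0 h in the 3p arm, while the animals at 72 h overlapped with those at 0 h in either diet. Separation of this kind was not counted over the other miRNAs.

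miR-199a-5p rose between 0 and 72 h by 0.43 (SE 0.15, limma, adjusted p = 0.0292), a change of 34.8%, and 5 of 6 animals at 72 h were above the 0 h mean of their diet; miR-199a-3p was 0.08 (SE 0.16, adjusted p = 0.737). The 5p arm was among 51 of 143 miRNAs (35.7%) called, so a call was common in this comparison. Of the red blood cell miRNAs 2 of 2 were called lower (median -1.24) over the same interval, miR-451 at -1.31 (adjusted p = 5.66e-05) and miR-144 at -1.16 (adjusted p = 0.00194). Of the hepatocyte miRNAs 1 of 3 was called higher (median 0.18), miR-122 at 0.38 (adjusted p = 0.0234), and of the leukocyte miRNAs 1 of 4 was called lower (median 0.31), miR-150 at -0.70 (adjusted p = 0.00194). What part these cells had in the 5p rise was not tested. At 6 h the 5p arm was 0.07 (SE 0.15, adjusted p = 0.715) and the 3p arm -0.35 (SE 0.16, adjusted p = 0.0854) against 0 h, with neither among the 35 of 143 miRNAs (24.5%) called. At 24 h they were 0.15 (SE 0.15, adjusted p = 0.535) and -0.28 (SE 0.16, adjusted p = 0.196), outside the 29 of 143 miRNAs (20.3%) called. Animals at 6 and 72 h are of another numbered set than those at 0 h, so time and set cannot be told apart where 6 or 72 h is compared with 0 h. The 5p rise was lost without CHO-fed animal 2 or EtOH-fed animal 3 at 0 h or animals 4_8 (CHO) or 4_10 (EtOH) at 72 h (0.30 to 0.42, adjusted p = 0.0543 to 0.0939), and with total count scaling (0.20, adjusted p = 0.396), RLE (0.39, adjusted p = 0.0548), geometric mean scaling (0.38, adjusted p = 0.0614) or depth as a covariate (0.31, adjusted p = 0.242); the 3p value turned to -0.16 (adjusted p = 0.494) with total counts. At 6 h the 5p value turned to -0.05 (adjusted p = 0.843) with total counts, and the 3p arm was called without EtOH-fed animal 2 at 0 h (-0.42, adjusted p = 0.045).

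The comparison of 72 with 6 h lies within set 4, and here miR-199a-3p rose by 0.43 (SE 0.16, adjusted p = 0.0263), a change of 34.8%. Of the animals at 72 h, 6 of 6 were above the 6 h mean of their diet. miR-199a-5p was 0.36 (SE 0.15, adjusted p = 0.0509; 5 of 6), so 1 of the arms was called against 67 of 143 miRNAs (46.9%). miR-145, another miRNA of mesenchymal cells, went the other way over this interval, at -1.26 (adjusted p = 6.18e-07). miR-126, the 1 of 2 endothelial miRNAs in the table, was also lower at 6 h and higher again at 72 h, with -0.89 (adjusted p = 0.00393) from 0 to 6 h and 0.83 (adjusted p = 0.00173) from 6 to 72 h. Its level in CPM (mean and range of 3) was 34649 (18141 to 45448) in CHO-fed and 35179 (20951 to 46452) in EtOH-fed rats at 0 h, 18864 (16186 to 21511) and 16807 (13129 to 19937) at 6 h, 28713 (23887 to 33960) and 30365 (25265 to 37983) by 24 h, and 28907 (25489 to 30888) and 34366 (31378 to 36833) by 72 h. At 24 h they differed, since miR-199a-3p was at its lowest in EtOH-fed rats and miR-126 was not, and over the 16 group means r between them was 0.282. Of the red blood cell miRNAs 1 of 2 was called lower (median -0.79), miR-451 at -1.01 (adjusted p = 0.00052), and of the hepatocyte miRNAs 1 of 3 was called higher (median 0.38), miR-192 at 0.87 (adjusted p = 0.000304). The leukocyte miRNAs differed among themselves, with miR-142-3p at 0.85 (adjusted p = 0.000566), miR-150 at -0.99 (adjusted p = 5.48e-05) and miR-342-3p at -0.43 (adjusted p = 0.0286) called of 4. What part any of these cells had in the 3p rise was not tested. The 3p call was lost without CHO-fed animals 4_1 or 4_8 or EtOH-fed animals 4_6 or 4_12 (0.33 to 0.38, adjusted p = 0.0654 to 0.0982), with total count scaling (0.32, adjusted p = 0.15), geometric mean scaling (0.31, adjusted p = 0.0896) or depth as a covariate (0.35, adjusted p = 0.204). miR-199a-5p was called without animals 4_7 or 4_9 (CHO, 72 h) or animal 4_4 (EtOH, 6 h), at 0.40 to 0.46 (adjusted p = 0.0164 to 0.049), and in a fit of all 48 animals (0.36, adjusted p = 0.0293), and was 0.24 (adjusted p = 0.217) with geometric mean scaling and 0.24 (adjusted p = 0.369) with depth as a covariate.

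Neither arm was called in any of these comparisons within 1 diet. The 3p arm was lowest at 6 h in CHO-fed rats and at 24 h in EtOH-fed rats. In CHO-fed rats, at 6 h against 0 h, miR-199a-5p was 0.03 (SE 0.21) and miR-199a-3p -0.51 (SE 0.22), where 3 of 143 miRNAs (2.10%) were called. At 24 h they were 0.34 (SE 0.21) and 0.06 (SE 0.22), with 2 of 143 miRNAs (1.40%) called, and at 72 h 0.33 (SE 0.21) and -0.02 (SE 0.22), with 26 of 143 miRNAs (18.2%) called. From 6 to 72 h the values were 0.30 (SE 0.21) and 0.49 (SE 0.22), against 44 of 143 miRNAs (30.8%) called. The lowest adjusted p of an arm among these was 0.101. In EtOH-fed rats miR-199a-5p stayed near its 0 h level until 24 h and stood highest at 72 h. Between 0 and 6 h, miR-199a-5p was 0.11 (SE 0.21) and miR-199a-3p -0.20 (SE 0.22), where 16 of 143 miRNAs (11.2%) were called. By 24 h the differences from 0 h were -0.04 (SE 0.21) and -0.62 (SE 0.22), with 2 of 143 miRNAs (1.40%) called, and at 72 h 0.53 (SE 0.21) and 0.17 (SE 0.22), with 26 of 143 miRNAs (18.2%) called. Between 6 and 72 h they were 0.42 (SE 0.21) and 0.37 (SE 0.22), against 53 of 143 miRNAs (37.1%) called. The lowest adjusted p here was 0.0856. miR-199a-3p was called from 6 to 72 h in CHO-fed rats without animal 4_7 (0.70, adjusted p = 0.0359), and miR-199a-5p in EtOH-fed rats without animal 4_4 (0.60, adjusted p = 0.0445). From 0 to 72 h miR-199a-5p was called in EtOH-fed rats in a fit of the compared groups alone (0.53, adjusted p = 0.046). A dependence of the time course on diet was not shown: over the 4 times, limma gave F = 3.97 (adjusted p = 0.701) for miR-199a-3p and F = 1.40 (adjusted p = 1) for miR-199a-5p, and called 0 of 143 miRNAs (0%), with 8 at unadjusted p under 0.05.

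Averaged over untreated and saline controls, miR-199a-3p fell between 0 and 24 h, and miR-199a-5p was higher without passing the test. The arms were not tested against each other. The 3p arm was lower at 24 h than the matched 0 h mean in 10 of 12 control animals, and the 5p arm higher in 11 of 12. The differences were -0.32 (SE 0.09) for miR-199a-3p (limma, adjusted p = 0.0101), a change of -19.8%, and 0.22 (SE 0.09) for miR-199a-5p (adjusted p = 0.0577). Of the arms, 1 was thus among 49 of 143 miRNAs (34.3%) called. Of the hepatocyte miRNAs 1 of 3 was called higher (median 0.09), of the leukocyte miRNAs 1 of 4 was called higher and 1 of 4 was called lower (median 0.09), and of the red blood cell and endothelial miRNAs 0, and their part in the result was not tested. The controls were not all alike in this, since in untreated rats miR-199a-3p was 0.06 on the CHO diet and miR-199a-5p -0.04 on the EtOH diet. With 1 kind of control alone the 3p fall was not called, at -0.36 (adjusted p = 0.0841) in saline and -0.28 (adjusted p = 0.196) in untreated animals, and no other alternative or left-out animal changed its call. miR-199a-5p was called without the 2 saline animals low in miR-21 (0.27, adjusted p = 0.0485), and without saline animal 2 at 0 h (CHO) or untreated animals 2 (CHO) or 1 (EtOH) at 24 h (0.24 to 0.25, adjusted p = 0.0301 to 0.0364). With total counts, however, the 5p difference was only 0.041 (adjusted p = 0.796), and the 3p difference -0.49 (adjusted p = 0.00213).

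Split by diet, the 3p fall was called in EtOH-fed controls, at -0.43 (SE 0.13, adjusted p = 0.0311; 6 of 6 animals below the matched 0 h mean), where miR-199a-5p was 0.10 (SE 0.13, adjusted p = 0.598) and 16 of 143 miRNAs (11.2%) were called. In CHO-fed controls miR-199a-5p was 0.33 (SE 0.13, adjusted p = 0.0531; 6 of 6 above) and miR-199a-3p -0.21 (SE 0.13, adjusted p = 0.267), neither among the 36 of 143 miRNAs (25.2%) called. Whether the change differed between the diets was not tested in controls alone. The 3p call in EtOH-fed controls was lost in 6 of 12 runs that left out 1 animal (-0.42 to -0.36, adjusted p = 0.0628 to 0.104), namely saline animal 1 or untreated animals 1 and 3 at 0 h and saline animal 2 or untreated animals 2 and 3 at 24 h; it was -0.24 (adjusted p = 0.473) with saline animals alone, -0.62 (adjusted p = 0.125) in untreated animals alone, -0.39 (adjusted p = 0.228) without the 2 saline animals low in miR-21 and -0.49 (adjusted p = 0.0692) with total counts. In CHO-fed controls the 5p arm was called without saline animal 2 at 0 h or untreated animal 2 at 24 h (0.38 to 0.40, adjusted p = 0.0317 to 0.0326) and with RLE (0.33, adjusted p = 0.048), but was 0.031 (adjusted p = 0.903) with total counts, where the 3p arm was called (-0.50, adjusted p = 0.0271). The replicate number as a block also gave the 5p arm a call (0.33, adjusted p = 0.0449).

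In AM21 animals miR-199a-5p was higher at 24 h than the 0 h mean in 6 of 6 animals, by 0.35 (SE 0.13, adjusted p = 0.0531), and miR-199a-3p was -0.09 (SE 0.13, adjusted p = 0.668). Neither arm was among the 20 of 143 miRNAs (14.0%) called. Of the red blood cell miRNAs 1 of 2 was called lower over the same interval (median -0.92), and of the hepatocyte, endothelial and leukocyte miRNAs 0. Their part in the result was not tested. In CHO-fed AM21 rats the values were 0.28 (SE 0.18) and -0.12 (SE 0.19), with 13 of 143 miRNAs (9.09%) called, and in EtOH-fed ones 0.42 (SE 0.18) and -0.06 (SE 0.19), where limma called 0 of 143 miRNAs (0%) and 20 had an unadjusted p under 0.05. The change from 0 to 24 h was not shown to differ between AM21 animals and controls, at 0.14 for the 5p arm and 0.23 for the 3p arm (AM21 minus controls; adjusted p = 0.998 for each). The 5p arm was called without CHO-fed animal 3 or EtOH-fed animal 1 at 24 h (0.42, adjusted p = 0.0327 to 0.0337), with RLE (0.37, adjusted p = 0.0445), with voom weights (0.37, adjusted p = 0.0477) and with depth as a covariate (0.35, adjusted p = 0.0466), and with total counts it was 0.25 (adjusted p = 0.302). The replicate number as a block also gave it a call (0.35, adjusted p = 0.0486).

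Averaged over the times, ethanol feeding went with less miR-199a-5p in untreated rats. The average difference in miR-199a-3p was small, but single times ran from -0.68 at 24 h to 0.31 at 6 h. Over the 4 times, 11 of 12 EtOH-fed animals were below the CHO mean of their time in the 5p arm and 5 of 12 in the 3p arm. The difference was -0.33 (SE 0.11) for miR-199a-5p (limma, 12 against 12 animals, adjusted p = 0.0493), a change of -20.3%, and -0.05 (SE 0.11) for miR-199a-3p (adjusted p = 0.784). The 5p arm was among 16 of 143 miRNAs (11.2%) called. Its adjusted p lay just under 0.05: the call was lost in 17 of 24 runs that left out 1 animal (-0.35 to -0.26, adjusted p = 0.0522 to 0.0967), and kept only without animal 2 of either diet at 0 or 24 h, CHO-fed animal 4_7 at 72 h or EtOH-fed animals 4_4 and 4_6 at 6 h. With RLE it was -0.32 (adjusted p = 0.0568).

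At single times the diet difference was largest at 24 h, in both arms. At that time no EtOH-fed untreated rat overlapped with a CHO-fed one, but how many of the 143 miRNAs also did not overlap was not counted. The 5p arm was 9.48 in CHO-fed and 8.80 in EtOH-fed rats on average, and the 3p arm 12.18 and 11.50. The differences were -0.68 (SE 0.21, adjusted p = 0.0804) and -0.68 (SE 0.22, adjusted p = 0.0835), neither among the 3 of 143 miRNAs (2.10%) called, although the 5p arm was called in a fit of all 48 animals (-0.68, adjusted p = 0.0373). These EtOH-fed rats also had the highest summed level of red blood cell miRNAs of the 16 group means, 3954 (3266 to 4354) CPM (mean and range of 3) against 1724 (1189 to 2238) in CHO-fed rats, without overlap. Of 3 such miRNAs 2 are in the table, miR-144, the most abundant, and miR-451, and over the 4 times 1 was called higher in EtOH-fed rats, miR-451 at 0.54 (adjusted p = 0.0242), with miR-144 at 0.55 (adjusted p = 0.0627). At the other times the sum was 1896 (1290 to 2433) in CHO-fed and 2533 (1904 to 3786) in EtOH-fed rats at 0 h, 1830 (1454 to 2247) and 1246 (962 to 1474) at 6 h, and 609 (545 to 655) and 1420 (702 to 1893) by 72 h. What part red blood cells had in the diet difference was not tested. At 0 h the values were -0.31 (SE 0.21) and -0.00 (SE 0.22), with 0 arms among the 3 of 143 miRNAs (2.10%) called. At 6 h they were -0.22 (SE 0.21) for miR-199a-5p and 0.31 (SE 0.22) for miR-199a-3p, and limma called 0 of 143 miRNAs (0%; 13 at unadjusted p under 0.05). The diets differed by -0.10 (SE 0.21) and 0.19 (SE 0.22) at 72 h, where limma also called 0 of 143 miRNAs (0%; 14 unadjusted).

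Taken over untreated, saline and AM21 animals, EtOH minus CHO in miR-199a-5p was -0.23 (SE 0.10) at 0 h (adjusted p = 0.137) and -0.33 (SE 0.10) at 24 h (adjusted p = 0.091). In miR-199a-3p it was -0.02 (SE 0.11, adjusted p = 0.895) and -0.15 (SE 0.11, adjusted p = 0.507). Neither arm was among the 21 of 143 miRNAs (14.7%) called at 0 h or the 2 of 143 miRNAs (1.40%) at 24 h. The change of the diet effect from 0 to 24 h, also added after the values had been viewed, was -0.10 (SE 0.14) for the 5p arm and -0.13 (SE 0.15) for the 3p arm, with limma calling 0 of 143 miRNAs (0%) and 17 at unadjusted p under 0.05. At 0 h miR-199a-5p was called with total counts (-0.46, adjusted p = 0.0113) and geometric mean scaling (-0.29, adjusted p = 0.0478).

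Because each probe captures its target with its own efficiency, the gap between the arms is not a molar ratio, and only its change from group to group is read here. miR-199a-5p minus miR-199a-3p was below 0 in 48 of 48 animals, from -3.58 to -2.15 (median -2.88). This difference needs no scaling between animals. In untreated CHO-fed rats the values were -3.0, -3.06 and -2.88 at 0 h. They were -2.15, -2.54 and -2.65 after 6 h, -2.24, -2.97 and -2.88 after 24 h, and -2.60, -2.51 and -2.78 after 72 h. Untreated EtOH-fed rats had -3.39, -3.0 and -3.45 before regrowth (0 h), with -2.79, -3.45 and -2.67 after 6 h, -3.03, -2.57 and -2.49 after 24 h, and -2.84, -2.61 and -3.31 after 72 h. In either diet the group mean was thus most negative at 0 h, where the 3p arm stood highest over the 5p arm. Single animals at 0 h overlapped with those at 24 h in CHO-fed rats and with those of each later time in EtOH-fed rats.

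A less negative difference at 24 h than at 0 h was also seen under injection. With saline, CHO-fed rats had -3.42, -2.95 and -3.33 at 0 h against -2.48, -2.64 and -2.23 at 24 h, and EtOH-fed rats -3.27, -2.94 and -3.27 against -2.78, -2.47 and -2.77. With AM21, CHO-fed rats had -3.19, -2.75 and -3.45 against -2.76, -2.58 and -2.83, and EtOH-fed rats -3.58, -3.58 and -3.34 against -2.97, -3.01 and -3.09. The animals at 0 and 24 h did not overlap with saline in either diet or with AM21 in EtOH-fed rats, and overlapped in the other 3 pairs of diet and treatment. The group mean (± SD, n = 3) was less negative at 24 h than at 0 h in each of the 6 pairs of diet and treatment, for example -3.23 ± 0.25 against -2.45 ± 0.21 in CHO-fed saline rats and -3.50 ± 0.14 against -3.02 ± 0.06 in EtOH-fed AM21 rats. The extremes were -3.50 ± 0.14 in EtOH-fed AM21 rats at 0 h and -2.44 ± 0.26 in CHO-fed untreated rats at 6 h. No test was made of this difference, which is a description of the values of both arms side by side.

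**Figure D3:**
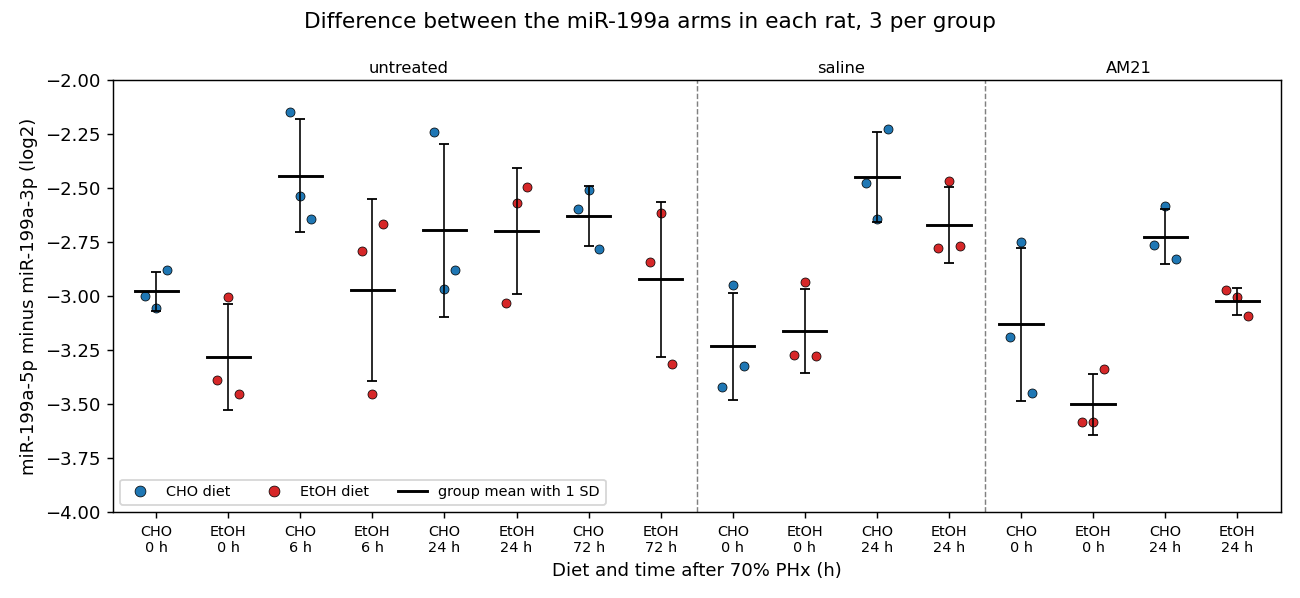
miR-199a-5p minus miR-199a-3p in each rat on the log2 scale, by diet, treatment and time after PHx; each point is 1 rat and the bars are the group mean with 1 SD (n = 3). In every diet and treatment the mean is less negative at 24 h than at 0 h, as in -3.23 against -2.45 with saline on the CHO diet.

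Animals with more of one arm tended to have more of the other. Over all 48 animals the arms had Pearson r = 0.497 (permutation p with 100000 resamples = 0.00027, adjusted over 5 relations 0.00135) and Spearman rho = 0.495 (adjusted p = 0.00165). These p-values come from permuting animals without regard to group and may be too low. Without the 2 animals farthest from the centre r was 0.46, and with the 16 group means removed 0.448 (adjusted p = 0.00715). Within the 4 sets, of 12 animals each, r was 0.531, 0.634, 0.423 and 0.543. The arms thus varied together between groups and between animals of a group.

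Across the 24 controls at 0 and 24 h, miR-199a-5p showed no clear relation with miR-21, the target of AM21: Pearson r = -0.034 (permutation, adjusted p = 0.88), Spearman rho = 0.106 (adjusted p = 0.669), and r = 0.134 without the 2 farthest animals. miR-199a-3p was lower where miR-21 was higher, with rho = -0.525 (adjusted p = 0.0222) and r = -0.438 (adjusted p = 0.0688), or -0.442 without the 2 farthest. That relation lay between groups: with group means removed r was 0.109 (adjusted p = 0.613), and within sets 1 to 3 (8 animals each) it was -0.803, -0.329 and -0.337. Since animals were permuted without regard to group, the p-values of this relation over the 24 controls may be too low. Among the 12 AM21 animals, r with miR-21 was 0.285 for the 5p arm (adjusted p = 0.457; 0.001 without the 2 farthest) and 0.599 for the 3p arm (adjusted p = 0.0688; 0.564), with rho at 0.14 and 0.434. With group means removed these became 0.666 (adjusted p = 0.0468) and 0.618 (adjusted p = 0.0563). Both p-values may be too low, since removing the means leaves fewer free values than animals. Sets 1 to 3 (4 animals each) did not agree for the 5p arm, at 0.927, -0.772 and -0.404, while the 3p arm had 0.594, 0.26 and 0.913, and miR-21 had only 15 to 32 counts in these animals.

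The miRNAs whose group means were most like the mean of both arms were miR-340-5p, miR-21, miR-200b, miR-497 and miR-221. Over the 16 group means, r was 0.658 for miR-340-5p (0.636 with the 5p arm, 0.502 with the 3p arm), 0.569 for miR-21 (0.656 with the 5p arm, 0.303 with the 3p arm) and 0.551 for miR-200b (0.378 with the 5p arm, 0.61 with the 3p arm). It was 0.483 for miR-497 (0.566 with the 5p arm, 0.246 with the 3p arm) and 0.463 for miR-221 (0.669 with the 5p arm, 0.08 with the 3p arm). Most of these likenesses lay with 1 of the arms, and they were weak between animals of a group: over the 48 animals with group means removed, r with the 5p arm was 0.161, 0.06, 0.114, -0.084 and 0.009 in the same order. With the 3p arm it was 0.03, 0.24, 0.113, -0.05 and 0.211. The arms themselves had r = 0.525 with each other over the group means, which placed miR-199a-3p 9th of 142 for the 5p arm and miR-199a-5p 7th for the 3p arm. Between animals of a group each was among the closest to the other, at r = 0.448: miR-199a-5p ranked 1 for the 3p arm, and miR-199a-3p ranked 2 for the 5p arm after miR-145 (r = 0.47).

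Other miRNAs of mesenchymal cells mostly did not pass the test where the miR-199a arms fell under AM21. Of 13 such miRNAs 9 are in the deposited table, and 3 were called lower, namely both arms and miR-497 (-0.31, adjusted p = 0.0302), with a median of -0.06. Without the arms, 1 of 7 was called lower and the median was 0.04, beside 2 higher and 6 lower of all 143 and a median of 0.00. The 6 without a call were miR-143 (0.05), miR-145 (-0.08), miR-125b-5p (0.04), miR-100 (0.15), miR-99a (0.12) and miR-195 (-0.06). These miRNAs are not particular to mesenchymal cells. The paper also lists miR-497, miR-195, miR-145 and miR-199a-5p as enriched in liver sinusoidal endothelial cells. It lists miR-195 and miR-99a as lower in activated stellate cells. The miR-199 and miR-214 relatives numbered 6, of which only the 2 arms have a row in the deposited table (median -0.41). Among miRNAs listed as higher in activated stellate cells, 14 of 16 are in the table and 0 were called higher and 2 lower, miR-199a-5p and miR-21 (median -0.02; most abundant miR-125b-5p). Of those listed as lower in them, 22 of 26 are in the table, with 1 called higher and 0 lower (median 0.09; most abundant miR-122). Lists for other cells had no call: hepatocyte 0 of 3 (of 3 listed; median 0.08; most abundant miR-122), endothelial 0 of 1 (of 2 listed; median 0.20; most abundant miR-126), red blood cell 0 of 2 (of 3 listed; median -0.42; most abundant miR-144) and leukocyte 0 of 4 (of 6 listed; median 0.08; most abundant miR-142-3p).

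Over time after PHx the other 7 mesenchymal miRNAs, of which miR-125b-5p was the most abundant, had a summed level that was highest at 6 h in untreated rats. That sum mostly follows miR-125b-5p and miR-145, so it does not stand for the list as a whole. Their highest group means were 14.71 and 14.42 log2 CPM, and the next highest was 12.70 in miR-99a. Their summed level in CPM, averaged over 3 animals, was 42443 in CHO-fed and 35821 in EtOH-fed untreated rats at 0 h. In the same order of diets it was 55290 and 51342 after 6 h, 31471 and 31137 after 24 h, and 31996 and 23832 after 72 h. The sum was thus highest when the mean of miR-199a-3p was low, at 6 h, and in EtOH-fed rats lowest at 72 h, when both arms were high, but at 24 h it was below 0 h in either diet. From 0 to 24 h the 7 held 0 higher and 3 lower (median -0.13) in untreated rats, 0 higher and 3 lower (median -0.06) over all controls and 1 higher and 2 lower (median 0.15) in AM21 animals, beside 11 and 18, 26 and 23, and 8 and 12 of all 143 (medians 0.04, 0.06 and 0.02). From 0 to 6 h they held 2 higher and 1 lower (median 0.07), from 6 to 72 h 0 higher and 3 lower (median -0.34), and from 0 to 72 h 0 higher and 3 lower (median -0.33), beside 13 and 22, 35 and 32, and 26 and 25 of all 143 (medians 0.07, 0.02 and 0.03). miR-145 was 0.53 (adjusted p = 0.00803) from 0 to 6 h. In saline rats the sum was 36481 (CHO) and 37603 (EtOH) at 0 h and 35434 and 30356 at 24 h, and in AM21 rats it was, in that order, 36356, 34179, 34225 and 35189. Hepatocyte miRNAs summed to 458058 and 603800 CPM in untreated CHO-fed and EtOH-fed rats at 0 h, 584525 and 673384 after 6 h, 615758 and 642459 after 24 h and 638903 and 716694 after 72 h. Leukocyte miRNAs summed to 3224 and 3683, 3787 and 3587, 2788 and 3027, and 3554 and 3264 at those times. What part the number of mesenchymal cells had in the levels of the arms was not tested.

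The arms differ in how much sequence they share with miR-21, the strand AM21 was made against, a feature looked up after the values were seen. miR-199a-5p has a run of 7 bases in common with miR-21 (bases 9 to 15, bases 8 to 14 of miR-21), outside its seed, while the longest run in miR-199a-3p is 3 bases. The sequences, from RefSeq (GRCr8), show that run in capitals.
rno-miR-21-5p: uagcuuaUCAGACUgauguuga
rno-miR-199a-5p: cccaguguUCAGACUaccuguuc
Among the 123 miRNAs compared, the median longest run was 4 bases and 5 had at least 7, miR-199a-5p included. The other 4 were miR-340-5p (8 bases; AM21 minus controls -1.44, adjusted p = 9.41e-08), miR-361 (8; -0.28, adjusted p = 0.0302), miR-743b (8; -0.31, adjusted p = 0.324) and miR-499 (7; 0.09, adjusted p = 0.648). For 71 miRNAs the name matched both arms of a hairpin and the longer run was taken. The sequence of AM21 is not in the sources used here, and whether the shared run had a part in the values was not tested.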

How the data were processed

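The authors deposited log2 (CPM) values of 143 miRNAs in 48 livers, scaled by TMM in edgeR and made with voom, from NanoString nCounter counts. Whole counts were recovered from them by undoing the 0.5 offset of voom, to within 0.001 of a whole number. Summed over these 143 miRNAs, they gave 58168 to 267582 counts per animal. The deposited values were used without a filter or further scaling. Linear models with 1 mean per group were fitted with limma 3.58.1 (R 4.3.3) over all miRNAs, for the 24 untreated animals (8 groups) and for the 36 animals at 0 and 24 h (12 groups), with lmFit and eBayes at default settings. p-values were adjusted by Benjamini and Hochberg within each comparison, with a threshold of 0.05. The code was tested on simulated data.

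The members and lists were chosen with earlier results of these data known. The comparisons of saline with untreated animals within a diet and time, of the saline effect by diet and by time, of AM21 within a diet and time, and of the diet effect between times over all treatments were added after values had been viewed. Named miRNAs are the 5 whose 16 group means correlate most with the mean of both arms, miR-21, miR-340-5p and members of 2 lists (mesenchymal cell, miR-199 and miR-214 relatives). Lists of stellate activation (up and down, as the paper lists them from an earlier study), hepatocyte, endothelial, red blood cell and leukocyte miRNAs are given by counts, median and most abundant member. miR-451, miR-192, miR-150, miR-342-3p, miR-361, miR-743b and miR-499 were named after their values were seen. Correlations were tested by permutation (100000 resamples) and adjusted over 5 relations. Animals were permuted without regard to group, so p-values of relations that lie between groups may be too low. Where group means were removed, the p-values may be too low, since removal leaves fewer free values than animals.

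Alternatives were RLE size factors, the geometric mean of the 100 highest probes, total counts, a filter of at least 50 counts in at least 3 animals, voom weights, all 48 animals or only the compared groups in the fit, log10 total count as a covariate, an intensity trend with a robust prior, the replicate number as a block, saline or untreated controls alone, and leaving out each animal. Leaving out the 2 saline animals low in miR-21 was chosen after seeing the data. Tables and figures were made in Python 3.11.15 with numpy 2.4.6, pandas 2.3.3, scipy 1.17.1 and matplotlib 3.10.9. No animal was left out of the values reported unless stated.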

Additional observations from a re-analysis of the deposited data

How the results depend on the processing

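For 44 differences and 1 F test of each arm, 2196 values under alternatives were computed. In what follows, AM21 stands for AM21 minus controls, saline for saline minus untreated, diet for EtOH minus CHO, and 24 v 0 h for 24 h minus 0 h. Of the values, 1991 kept direction and side of the threshold, 107 lost a call, 33 gained one and 65 turned sign. None of the 15 called differences turned sign, and miR-199a-5p under AM21 over both diets and times kept its call throughout, from -0.68 to -0.34. Signs that turned, and most changed calls of comparisons over both diets, are given by alternative, and the other changed calls stand in the report beside their results. The cause was not tested. Depth limits the 5p arm more than the 3p arm, through its lower counts.

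With RLE size factors, calls were lost for 5p 72 v 0 h untreated (0.39) and 5p diet untreated (-0.32), and gained for 5p 24 v 0 h AM21 animals (0.37), and signs turned for 3p AM21 EtOH 24 h (0.040), 3p diet untreated 0 h (0.041) and 5p AM21 by diet (-0.00040). With all 48 animals in 1 fit, calls were lost for 5p saline (0.34), and gained for 5p 72 v 6 h untreated (0.36). With the geometric mean of the 100 highest probes as scale, calls were lost for 3p 72 v 6 h untreated (0.31), 3p AM21 (-0.24) and 5p 72 v 0 h untreated (0.38), and gained for 5p diet over treatments 0 h (-0.29), and signs turned for 3p 24 v 0 h untreated CHO (-0.025) and 3p AM21 EtOH 24 h (0.075). With a trend and robust prior, calls were lost for 5p saline (0.34). With log10 total count as a covariate, calls were lost for 3p 72 v 6 h untreated (0.35), 5p 72 v 0 h untreated (0.31) and 5p saline (0.34), and gained for 5p 24 v 0 h AM21 animals (0.35), and signs turned for 3p 72 v 0 h untreated (-0.0049). With only the compared groups in the fit, calls were lost for 5p saline (0.34). With saline controls only, calls were lost for 3p 24 v 0 h controls (-0.36), and signs turned for 5p AM21 by diet (-0.20). With total count scaling, calls were lost for 3p 72 v 6 h untreated (0.32), 5p 72 v 0 h untreated (0.20) and 5p saline (0.35), and gained for 5p diet over treatments 0 h (-0.46), and signs turned for 3p 24 v 0 h AM21 animals EtOH (0.041), 3p 24 v 0 h untreated CHO (-0.20), 3p 72 v 0 h untreated (-0.16), 3p AM21 EtOH 24 h (0.062), 3p diet over treatments by time (0.17), 5p 24 v 0 h AM21 animals CHO (-0.026), 5p 6 v 0 h untreated CHO (-0.16), 5p 6 v 0 h untreated (-0.052) and 5p diet over treatments by time (0.19). With untreated controls only, calls were lost for 3p AM21 (-0.15), and signs turned for 3p AM21 EtOH 24 h (0.33), 3p AM21 EtOH (0.051) and 5p AM21 EtOH 24 h (0.0072). With voom weights, calls were lost for 5p saline (0.34), and gained for 5p 24 v 0 h AM21 animals (0.37). Without the 2 EtOH-fed saline animals at 0 h low in miR-21 (added after seeing the data), calls were lost for 3p AM21 (-0.30) and 5p saline (0.29), and gained for 5p 24 v 0 h controls (0.27).

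Leaving out each animal in turn gave a call or sign that moved in 3p 24 v 0 h AM21 animals EtOH (-0.16 to 0.11), 3p 24 v 0 h untreated CHO (-0.066 to 0.21), 3p 6 v 0 h untreated (-0.42 to -0.27), 3p 72 v 0 h untreated CHO (-0.23 to 0.19), 3p 72 v 0 h untreated EtOH (-0.021 to 0.35), 3p 72 v 0 h untreated (-0.026 to 0.18), 3p 72 v 6 h untreated (0.33 to 0.54) and 3p AM21 EtOH 24 h (-0.11 to 0.16). The same held for 3p AM21 (-0.33 to -0.27), 3p diet over treatments 0 h (-0.072 to 0.020), 3p diet untreated 0 h (-0.095 to 0.13), 3p diet untreated 72 h (-0.016 to 0.40), 3p diet untreated (-0.098 to 0.0057), 3p saline by time (-0.17 to 0.00020), 3p saline CHO 24 h (-0.32 to 0.018) and 5p 24 v 0 h AM21 animals (0.27 to 0.42). So it did for 5p 24 v 0 h controls (0.19 to 0.25), 5p 24 v 0 h untreated EtOH (-0.12 to 0.081), 5p 6 v 0 h untreated CHO (-0.090 to 0.090), 5p 6 v 0 h untreated EtOH (-0.066 to 0.34), 5p 6 v 0 h untreated (-0.019 to 0.18), 5p 72 v 0 h untreated (0.30 to 0.53), 5p 72 v 6 h untreated (0.23 to 0.46) and 5p AM21 by diet (-0.049 to 0.093). Last came 5p diet untreated 6 h (-0.40 to 0.010), 5p diet untreated 72 h (-0.29 to 0.16), 5p diet untreated (-0.38 to -0.26), 5p saline CHO 0 h (-0.0022 to 0.23) and 5p saline (0.31 to 0.37). Leaving out animals gave 1248 values in all, of which 1115 kept direction and side.

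The number of miRNAs called over all 143 differed by more than 1.5 times under some alternative or left-out animal, given here with its range: 6 v 0 h untreated 35 (17 to 69), 24 v 0 h untreated 29 (9 to 34), 6 v 0 h untreated CHO 3 (0 to 46), 24 v 0 h untreated CHO 2 (0 to 23), 72 v 0 h untreated CHO 26 (5 to 38), 72 v 6 h untreated CHO 44 (8 to 49), 6 v 0 h untreated EtOH 16 (0 to 42), 24 v 0 h untreated EtOH 2 (0 to 6), 72 v 0 h untreated EtOH 26 (17 to 32), diet untreated 16 (7 to 40), diet untreated 0 h 3 (0 to 4), diet untreated 6 h 0 (0 to 1) and diet untreated 24 h 3 (0 to 5). It did so also for diet untreated 72 h 0 (0 to 2), AM21 8 (5 to 10), AM21 0 h 6 (2 to 7), AM21 24 h 4 (3 to 7), AM21 CHO 6 (3 to 9), AM21 EtOH 5 (3 to 6), AM21 CHO 0 h 3 (1 to 6), AM21 CHO 24 h 2 (1 to 5), AM21 EtOH 0 h 4 (1 to 5), AM21 EtOH 24 h 2 (1 to 4), AM21 by time 0 (0 to 1), saline 2 (0 to 2) and saline EtOH 0 h 1 (0 to 1). The others were saline EtOH 24 h 0 (0 to 3), saline by diet 0 (0 to 1), saline by time 0 (0 to 1), 24 v 0 h controls 49 (16 to 61), 24 v 0 h controls CHO 36 (8 to 44), 24 v 0 h controls EtOH 16 (1 to 22), 24 v 0 h AM21 animals 20 (11 to 29), 24 v 0 h AM21 animals CHO 13 (0 to 23), 24 v 0 h AM21 animals EtOH 0 (0 to 3), diet over treatments 0 h 21 (12 to 51), diet over treatments 24 h 2 (0 to 7) and diet over treatments by time 0 (0 to 9).

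Scaling moved the median over all miRNAs by more than 0.1 with total counts in 6 v 0 h untreated (-0.12), 24 v 0 h untreated (-0.15), 72 v 0 h untreated (-0.23), 72 v 6 h untreated (-0.11), diet untreated (-0.14), AM21 by diet (0.15), 24 v 0 h controls (-0.17), 24 v 0 h AM21 animals (-0.11) and diet over treatments 0 h (-0.23), and with the geometric mean in 72 v 6 h untreated (-0.12). Such scaling shifts every miRNA alike, so relative to that median the values are the same by construction, for the 5p and 3p arm 72 v 6 h untreated 0.34 and 0.41, 6 v 0 h untreated 0.0 and -0.42, 24 v 0 h untreated 0.11 and -0.32, 72 v 0 h untreated 0.40 and 0.045, diet untreated -0.28 and 0.0, AM21 by diet 0.0066 and 0.23, 24 v 0 h controls 0.16 and -0.38, 24 v 0 h AM21 animals 0.33 and -0.11 and diet over treatments 0 h -0.18 and 0.019. The split of higher and lower calls over all miRNAs moved by more than 10 points with total counts (total) or the geometric mean (mean) in 6 v 0 h untreated 13 and 22 against 34 and 22 (mean) or 5 and 29 (total), 24 v 0 h untreated 11 and 18 against 4 and 22 (total), 72 v 0 h untreated 26 and 25 against 11 and 49 (total), 72 v 6 h untreated 35 and 32 against 30 and 42 (total) and diet untreated 9 and 7 against 8 and 11 (mean) or 4 and 36 (total). It moved likewise in AM21 2 and 6 against 4 and 3 (mean) or 1 and 8 (total), 24 v 0 h controls 26 and 23 against 7 and 41 (total), 24 v 0 h AM21 animals 8 and 12 against 5 and 16 (total), diet over treatments 0 h 14 and 7 against 13 and 13 (mean) or 1 and 50 (total) and diet over treatments 24 h 0 and 2 against 2 and 1 (total).

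The replicate numbers 1 to 3 of the animals at 0 and 24 h come from the labels, which do not say what a number shares. In 5 of 24 pairs of groups did all 3 same-numbered pairs deviate together (r over 0.1), so the animals were taken to share only a number. The highest r of these 5 were between CHO-fed and EtOH-fed untreated rats at 0 h, at 0.516, 0.793 and 0.654. With the number as a replicate block, 5p AM21 CHO 24 h (-0.53, adjusted p = 0.0489), 5p 24 v 0 h controls CHO (0.33, adjusted p = 0.0449) and 5p 24 v 0 h AM21 animals (0.35, adjusted p = 0.0486) gained a call, and the block changed no other call of 64. The block moved the number of miRNAs called by more than 1.5 times in 24 v 0 h untreated CHO (from 2 to 6), 24 v 0 h untreated EtOH (from 2 to 5), diet untreated 0 h (from 3 to 1), AM21 CHO 24 h (from 2 to 5) and diet over treatments 24 h (from 2 to 4). No paired analysis was possible for 6 and 72 h because they share no number with each other or with 0 h.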
